A study of Mus musculus with 5 samples.

Results

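The MYC family and its dimerization partners were followed in the lens of N-myc knockout mice through 10 genes: Mycn, Myc and Mycl, which encode the MYC proteins, Max, which encodes their common partner, and Mxd1, Mxd3, Mxd4, Mxi1, Mnt and Mga, which encode the other MAX-binding proteins of the network. These genes were chosen by name, with earlier results of these data known. Each of the 10 had a row in the table of 12370 gene symbols and passed the filter on low counts. RNA of whole mouse lenses at embryonic day 14 was sequenced in 2 N-myc knockout libraries, from embryos with 1 copy of the lens Cre transgene Mlr10-Cre and loxP-flanked N-myc on both alleles, and in 3 control libraries. The controls lacked Cre and also had loxP-flanked N-myc on both alleles. The labels describe a second control genotype that in addition has loxP-flanked c-myc, and do not assign the control libraries to either genotype. Lenses of single animals were lysed and then pooled before the RNA was purified, so a library is a pool and p-values measure the spread between pools. Because every knockout library and no control library carried the Cre transgene, effects of the transgene and of the deletion cannot be told apart.

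MYC proteins are transcription factors of the basic helix-loop-helix leucine zipper class. They bind DNA as heterodimers with MAX at the E-box CACGTG and raise the transcription of genes for ribosome production, nucleotide synthesis and growth. The MXD proteins and MNT compete for MAX and for the same sites and repress through the SIN3 corepressor, while MGA carries a second DNA-binding domain and joins MAX in a Polycomb complex. In the embryonic lens, N-myc and c-myc are known for their part in growth of the tissue.

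Of the 10 genes, 3 fell in the knockout lenses and 7 did not pass the test. Mycn fell 2.16-fold, Mxd1 1.43-fold and Max 1.32-fold (edgeR quasi-likelihood test, adjusted p = 0.0097, 0.031 and 0.030). The background was 8.51% of 12035 tested genes called lower and 7.98% called higher. The number called higher among the 10 was 0 with edgeR, where 1 gene, Myc, had an unadjusted p under 0.05 and a positive fold change. The same held for 2189 of the 12035 tested genes. DESeq2 called 1 higher, also Myc, against 9.76% of all genes, and limma-voom called 0, against 6.81% of all genes. The median log2 fold change of the 10 genes was -0.04, against 0.002 over all tested genes, with 5 below 0 and 5 above. The CPM values (counts scaled for library size and composition, TMM) of the 2 groups did not overlap for 7 of the 10 genes, a state shared by 52.5% of all tested genes. These numbers include Mycn, the gene deleted by design. Among the other 9 genes, 2 were called lower and 0 higher, and 6 did not overlap. Their median log2 fold change was 0.065. Calls depended on single libraries. Without knockout replicate 1, control replicate 2 and control replicate 3, the share of all genes called lower was 0.937%, 0.142% and 0.875%, and 1, 0 and 1 of the 10 genes passed. In the edgeR fit without control replicate 2, 3 of the 10 genes had an unadjusted p under 0.05, near the 26.3% of all genes that did.

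**Figure D1:**
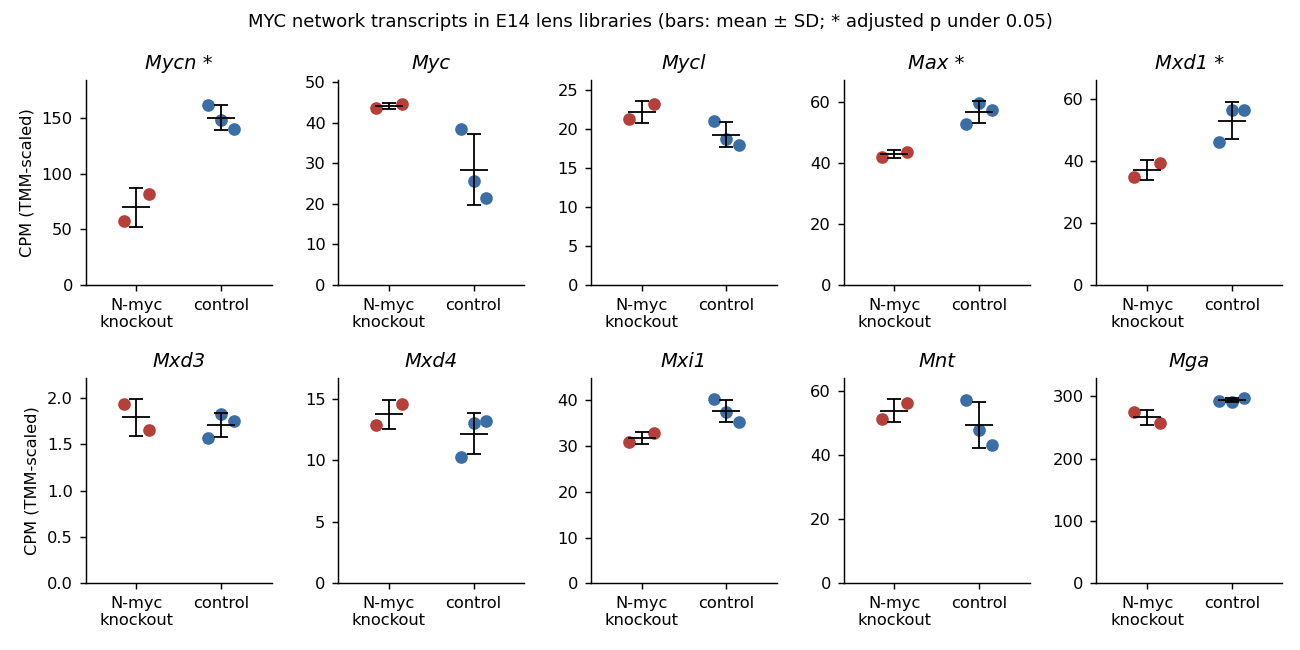
TMM-scaled CPM of the 10 genes (vertical axes, each from 0) in the 2 N-myc knockout libraries (red, left) and the 3 control libraries (blue, right), with bars for the mean ± SD and a star for an adjusted p under 0.05. Mycn, Max and Mxd1 lie lower in both knockout libraries than in each control library, and Myc lies at 43.7 and 44.5 CPM in the knockouts above a wide control range of 21.4 to 38.3 CPM.

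The libraries held between 13162384 and 13746416 counts. All 12 lens marker genes examined had counts in every library and summed to 80005 and 93785 CPM in the knockouts, against 86225 to 107862 CPM in the controls. Cryaa, the gene of the chaperone alpha-A crystallin, made up 44250 and 50158 CPM of these sums in the knockouts and 41907 to 51879 CPM in the controls. The sums hide changes of smaller markers, and Cryaa does not stand for them. Of the 12 lens markers, 4 were called lower and 0 higher. Their log2 fold changes were below 0 for 7 and above 0 for 5 (median -0.44, lowest -1.62). The knockout libraries stood apart from each other. On the first principal component of the log2 CPM values, with 62.3% of the variance, knockout replicates 1 and 2 lay at -50.3 and -11.9 and the controls between 19.7 and 21.4. Markers of tissues that surround the lens also differed. The 11 periocular mesenchyme markers with counts summed to 2362 and 740.5 CPM in knockout replicates 1 and 2, against 584.2 to 869.6 CPM in the controls, with 4 of the 11 called higher and none at 0 counts in any library. The 11 retinal markers summed to 88.0 and 211.7 CPM in knockout replicates 1 and 2, against 48.5 to 52.0 CPM in the controls, with 8 of the 11 called higher and none at 0 counts. The 8 vascular endothelial markers summed to 225.1 and 234.4 CPM in the knockouts, against 217.0 to 265.6 CPM in the controls. The 3 macrophage markers with counts summed to 29.4 and 29.3 CPM in the knockouts, against 13.9 to 20.6 CPM in the controls, with 1 of the 3 called higher. Their part in the values of the MYC network was not tested, and in whole lenses fewer cells of a type and less RNA per cell cannot be told apart.

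Mycn, the deleted gene (ENSMUSG00000037169, chromosome 12, 12936093 to 12941914, minus strand, GRCm38), was counted 801 and 1141 times in knockout replicates 1 and 2, against 2066, 1955 and 1848 times in the controls. Scaled, it stood at 57.3 and 81.9 CPM in the knockouts, against 162.0, 148.4 and 140.3 CPM in the controls. Both knockout libraries lay below each control, and the lower of the 2 was the library with the larger mesenchyme sum and the smaller retinal sum. The knockout mean was 69.6 ± 17.3 CPM (SD, n = 2) and the control mean 150.2 ± 11.0 CPM (SD, n = 3). Its fall was 1.11 on the log2 scale (log2 fold change -1.11, SE 0.15, 95% interval -1.45 to -0.77). Only 78 of the 12035 tested genes had a lower log2 fold change. Leaving out knockout replicate 1 gave -0.87 and leaving out knockout replicate 2 gave -1.39. Mycn passed in 13 of 14 alternative analyses, missing in the one without control replicate 2 (log2 fold change -1.11, adjusted p = 0.056). The table counts reads per gene and not per exon. Any transcripts of a recombined allele and of cells without recombination would therefore be part of the remaining count.

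Myc (ENSMUSG00000022346, chromosome 15, 61985391 to 61990374), which encodes c-MYC, had 43.7 and 44.5 CPM in the knockouts, against 38.3, 25.6 and 21.4 CPM in the controls. The 2 knockout values lay close together and above every control, and control replicate 1 lay nearer to them than to the other 2 controls. The mean was 44.1 ± 0.63 CPM in the knockouts and 28.4 ± 8.82 CPM in the controls. The log2 fold change of 0.63 (SE 0.21, 95% interval 0.15 to 1.12) did not pass edgeR's test (adjusted p = 0.073, range 0.019 to 0.21 over 14 alternatives). DESeq2 called it (adjusted p = 0.030), as did edgeR when libraries were scaled by totals alone (adjusted p = 0.046) and the edgeR fit without control replicate 1 (log2 fold change 0.91, adjusted p = 0.019). The log2 fold change was 0.48 without control replicate 3 (adjusted p = 0.15), 0.49 with the replicate number as a block (0.107) and 0.44 with the block and the trends on transcript length and GC content removed (0.21), and Myc passed in 3 of 14 alternatives.

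Mycl (ENSMUSG00000028654, chromosome 4, 122995652 to 123002485), which encodes L-MYC, had 21.2 and 23.2 CPM in the knockouts, against 21.0, 18.7 and 17.9 CPM in the controls. The lower knockout value and the highest control value were almost equal. Its log2 fold change was 0.21 (95% interval -0.09 to 0.50, edgeR adjusted p = 0.28), and -0.05 with the trends on transcript length and GC content removed.

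The balance among the 3 MYC genes differed between the groups. Per kilobase of annotated exon, Mycn gave 44.9% and 52.9% of the summed Mycn, Myc and Mycl level in the knockouts, against 71.8%, 76.2% and 77.6% in the controls. Myc gave 41.5% and 34.9% in the knockouts, against 20.6%, 15.9% and 14.4% in the controls, and Mycl 13.6% and 12.2% in the knockouts, against 7.60%, 7.86% and 8.08% in the controls. None of these shares overlapped between the groups, and scaling of the libraries cancels out of them. The 3 shares are parts of the same sum, so a lower Mycn level by itself raises those of Myc and Mycl. Their higher shares therefore do not show a rise of Myc or Mycl themselves. The ratio of Mycn to Myc per kilobase was 1.08 and 1.52 in the knockouts, against 3.48, 4.78 and 5.40 in the controls. The summed level of the 3 genes was 38.7 and 47.0 CPM per kilobase in the knockouts, against 68.5, 59.1 and 54.9 CPM per kilobase in the controls. The mean sum in the knockouts was 0.705 times that in the controls. These shares and sums are a description without a test of their own.

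**Figure D2:**
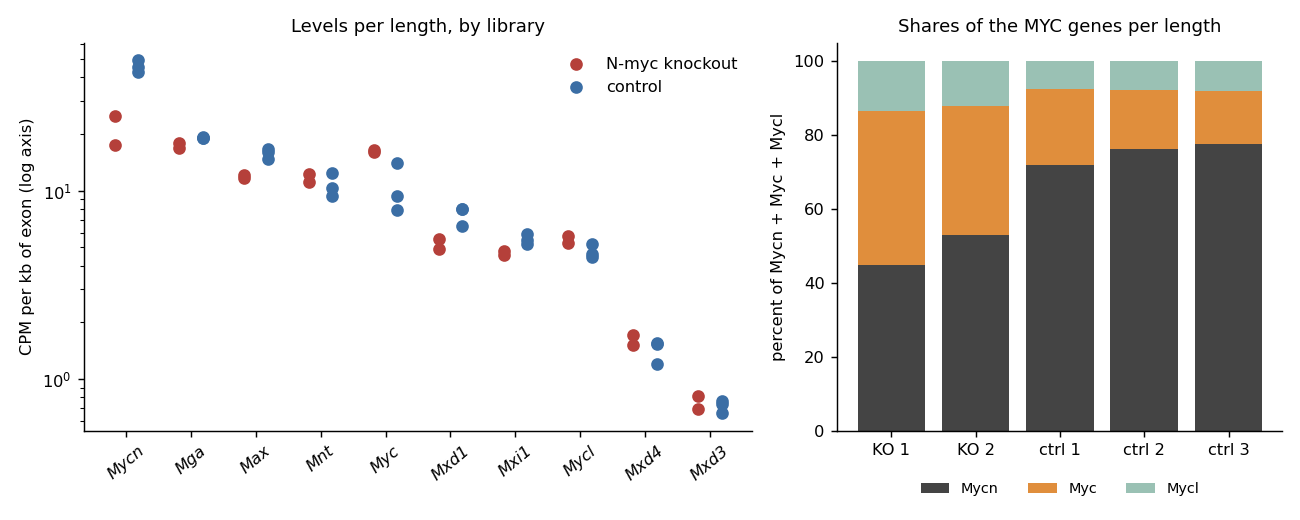
Left, CPM per kilobase of annotated exon (log axis) of the 10 genes in each N-myc knockout library (red) and each control library (blue), ordered by the control mean. Right, the percent that Mycn, Myc and Mycl contribute to their summed level per kilobase in each library, where Mycn gives 44.9% and 52.9% in the knockouts and 71.8% to 77.6% in the controls.

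Max (ENSMUSG00000059436, chromosome 12, 76937269 to 76962201, minus strand) encodes the common partner with which the MYC, MXD, MNT and MGA proteins form dimers. It had 42.2 and 43.8 CPM in the knockouts, against 52.9, 59.9 and 57.6 CPM in the controls. Both knockout values lay below the lowest control, and Max fell by 0.40 on the log2 scale (SE 0.092, 95% interval -0.61 to -0.19 for the fold change, edgeR adjusted p = 0.030). The fall did not pass without knockout replicate 1 (log2 fold change -0.37, adjusted p = 0.155), control replicate 2 (-0.35, 0.118) or control replicate 3 (-0.38, 0.0954). It also missed with libraries scaled by totals alone (-0.32, 0.052), with the block (-0.39, 0.061) and with the block and the trends removed (-0.29, 0.155). Max thus passed in 8 of 14 alternatives, while its direction held in all 14 (-0.45 to -0.29). The MYC genes together stood at 3.30 and 3.86 times the level of Max per kilobase in the knockouts, against 4.66, 3.55 and 3.43 times in the controls. For this ratio the groups overlapped. Its size depended on the length used. With the longest transcript of each gene it was 2.13 and 2.49 in the knockouts, against 3.04, 2.33 and 2.25 in the controls, again with overlap.

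Mxd1 (ENSMUSG00000001156, chromosome 6, 86647042 to 86669161, minus strand) encodes MAD1, a repressor known from cells that leave the cycle and differentiate. It had 34.9 and 39.4 CPM in the knockouts, against 46.2, 56.5 and 56.5 CPM in the controls, without overlap, a log2 fold change of -0.51 (SE 0.12, 95% interval -0.79 to -0.24, edgeR adjusted p = 0.031). It did not pass without knockout replicate 1 (-0.43, adjusted p = 0.172), control replicate 2 (-0.46, 0.118), control replicate 3 (-0.46, 0.0979) or with the block and the trends removed (-0.58, 0.055), and its direction held in all 14 alternatives.

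Of the other MXD genes, Mxi1, whose product is also called MXD2, came nearest to the threshold. It had 30.9 and 32.8 CPM in the knockouts, against 40.3, 37.3 and 35.4 CPM in the controls, and a log2 fold change of -0.24 (95% interval -0.48 to -0.01, edgeR adjusted p = 0.13). Its groups did not overlap, and it did not pass in any of 14 alternatives. Mxd4, which encodes MAD4, had 12.9 and 14.6 CPM in the knockouts, against 10.3, 13.0 and 13.2 CPM in the controls. Its groups overlapped, and the log2 fold change of 0.17 had a 95% interval of -0.21 to 0.56. Mxd3, known from dividing cells, was the least expressed of the 10. Its counts were 27 and 23 in the knockouts, against 20, 24 and 23 in the controls, and its log2 fold change of 0.06 had a 95% interval of -0.69 to 0.82, too wide at this depth to show a small change. GENCODE exons of Mxd3 share 105 bases with exons of Prelid1 on the opposite strand, those of Mxd4 share 514 bases with Gm42846 and those of Mxi1 share 194 bases with Gm10197. The strand setting of the counting is not known here, so reads from these stretches cannot be assigned.

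Mnt (ENSMUSG00000000282, chromosome 11, 74830920 to 74845725) encodes the MAX partner that is present in dividing and resting cells alike. It had 51.5 and 56.5 CPM in the knockouts, against 57.3, 47.7 and 43.1 CPM in the controls. The groups overlapped, and the log2 fold change was 0.13 (95% interval -0.16 to 0.42, edgeR adjusted p = 0.50). Mnt has the most GC-rich transcript of the 10 (59.5%), and with the trends on length and GC content removed its log2 fold change was -0.32 (adjusted p = 0.11). Its direction therefore depended on that correction. Mga (ENSMUSG00000033943, chromosome 2, 119897228 to 119969581), whose transcript has the lowest GC content of the 10 (42.2%), had 274.9 and 257.6 CPM in the knockouts, against 292.7, 290.8 and 296.9 CPM in the controls. The control values lay close together and both knockout values were below them. The log2 fold change of -0.14 (95% interval -0.32 to 0.04, edgeR adjusted p = 0.24) did not pass in any of 14 alternatives.

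**Figure D3:**
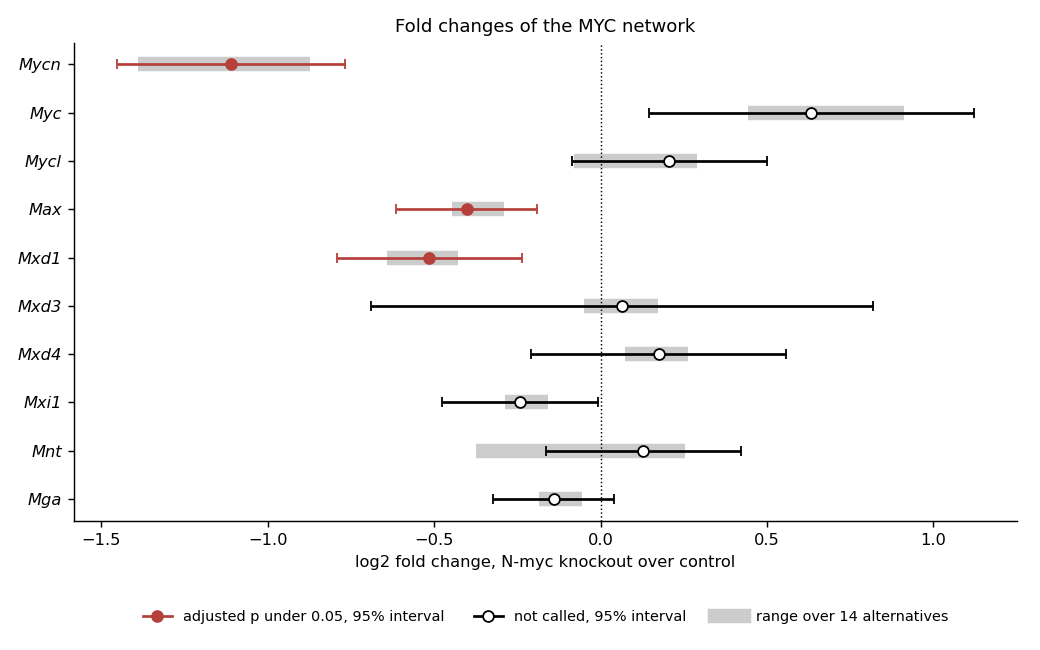
Log2 fold change of the N-myc knockout over the control lenses (horizontal axis) for the 10 genes, with the 95% interval of the edgeR fit as a thin bar, red where the adjusted p is under 0.05, and the range over 14 alternative analyses as a grey band. The intervals of Mycn, Max and Mxd1 lie below 0, and the grey band of Mnt runs from -0.37 to 0.25, across 0.

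Per kilobase of exon, Mycn had the highest mean of the network in both groups. In the knockouts the order of the means was Mycn (21.1 ± 5.26 CPM per kilobase), Mga (17.4 ± 0.80), Myc (16.2 ± 0.23), Max (11.9 ± 0.33), Mnt (11.7 ± 0.76), Mycl (5.49 ± 0.35), Mxd1 (5.25 ± 0.45), Mxi1 (4.67 ± 0.19), Mxd4 (1.62 ± 0.14) and Mxd3 (0.756 ± 0.084). In knockout replicate 1 Mga at 17.9 CPM per kilobase stood just above Mycn at 17.4. Mycn and Mga, Max and Mnt, and Mycl and Mxd1 were neighbours whose ranges over the libraries overlapped. In the controls the order was Mycn (45.6 ± 3.33 CPM per kilobase), Mga (19.1 ± 0.20), Max (15.8 ± 0.99), Mnt (10.7 ± 1.56), Myc (10.5 ± 3.25), Mxd1 (7.50 ± 0.84), Mxi1 (5.52 ± 0.36), Mycl (4.76 ± 0.40), Mxd4 (1.43 ± 0.19) and Mxd3 (0.723 ± 0.055). There the ranges of Mnt and Myc, of Myc and Mxd1, and of Mxi1 and Mycl overlapped. Myc was thus the third gene of the order in the knockouts and the fifth in the controls. Order depended in part on the length used. With the longest transcript of each gene in place of all exons, Max (22.1 ± 0.61 CPM per kilobase in the knockouts and 29.2 ± 1.83 in the controls) took the second place in both groups, and Myc the fourth.

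The 6 MAX partners other than the MYC proteins summed to 40.8 and 41.8 CPM per kilobase in the knockouts, against 45.8, 45.0 and 44.1 CPM per kilobase in the controls. Their sum was 1.05 and 0.889 times that of the MYC genes in the knockouts, against 0.669, 0.762 and 0.804 times in the controls. The knockout libraries thus had the higher ratios, without overlap. The MYC sum includes Mycn, the gene deleted by design, which made up 71.8% to 77.6% of it in the controls. A lower Mycn level by itself raises this ratio. The higher ratio therefore does not show a rise of the 6 partners, whose own sum was lower in both knockouts. In the sums, the mean of the MYC genes was 0.705 times and that of the 6 partners 0.918 times the control mean.

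Windows around the start sites of 9 of the 10 genes, all but Myc, were found in RefSeq (GRCm38.p6, 250 bases before to 50 after a start). The E-box letters CACGTG, which read the same on both strands, stood in the windows of 3 of the 9 genes, Max, Mnt and Mxd4, against 7.15% of 32851 windows of all genes and 10.02% of 11961 windows of tested genes. The windows of these 3 genes are shown because they hold the site that the dimers of the network bind. Of the 3 genes, Max fell and the other two did not pass the test. Each sequence has 60 bases, 5′ to 3′ on the strand of the gene, with the E-box in capitals, at chr12:76962219-76962278 (minus strand) for Max, chr11:74830774-74830833 (plus strand) for Mnt and chr5:34187897-34187956 (minus strand) for Mxd4.
Max: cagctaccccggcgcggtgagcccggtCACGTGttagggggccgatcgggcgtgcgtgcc
Mnt: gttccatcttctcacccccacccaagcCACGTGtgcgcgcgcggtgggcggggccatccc
Mxd4: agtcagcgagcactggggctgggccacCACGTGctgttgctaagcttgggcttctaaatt
The first base of the E-box lay 3 bases before the RefSeq start of Max, 123 bases before that of Mnt and 219 bases before that of Mxd4. The GENCODE positions given above start at other bases. For Max the GENCODE start is 76962201 on the minus strand, further from the E-box at 76962246 to 76962251. The E2F letters GCGGGAA, searched on both strands, stood in the window of 1 of the 9 genes, Mxd3, 136 bases before its start, against 4.6% of all windows and 8.36% of those of tested genes. A match describes the letters of a window and not binding.

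The genes for cofactors and regulators of the network are read against the 8.51% of all tested genes called lower and the 7.98% called higher. Among 27 genes of MYC coactivators (the TRRAP, TIP60 and GCN5 acetyltransferase complexes, WDR5, P-TEFb and ZBTB17), 1 rose and 26 did not pass, with a median log2 fold change of 0.08. The gene that rose was Mrgbp, a subunit of the TIP60 complex, at 11.6 and 8.32 CPM in the knockouts against 5.64 to 6.30 CPM in the controls (log2 fold change 0.72, SE 0.20, edgeR adjusted p = 0.046). Among 20 genes of the SIN3 and NCOR corepressors, 1 fell and 19 did not pass (median -0.09). Ing2, which binds methylated histone H3 in the SIN3 complex, fell 1.35-fold (35.6 ± 1.12 CPM in the knockouts, 48.2 ± 6.43 CPM in the controls). With edgeR neither Mrgbp nor Ing2 passed without control replicate 2 or control replicate 3, or after removal of the length and GC trends. Both had an unadjusted p under 0.05 without control replicate 2, as had 26.3% of all tested genes. Both genes were picked by a fit that used the same libraries. Mrgbp passed in 5 and Ing2 in 4 of 14 alternatives.

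Of the 10 genes for partners of MGA and MAX in the Polycomb complex PRC1.6, 3 fell and 7 did not pass (median log2 fold change -0.07), against 8.51% of all tested genes called lower. Pcgf6, which defines this form of the complex, fell 1.43-fold, to 15.8 and 16.7 CPM in the knockouts against 23.8, 23.1 and 22.9 CPM in the controls (edgeR adjusted p = 0.029). Rnf2, the ubiquitin ligase RING1B, fell 1.27-fold (68.9 ± 7.72 CPM in the knockouts, 87.2 ± 3.03 CPM in the controls). Cbx3, which encodes the heterochromatin protein HP1 gamma, fell 1.76-fold (4.37 ± 0.60 CPM in the knockouts, 7.68 ± 1.39 CPM in the controls). Cbx3 has near-identical processed copies in the genome, so its count is uncertain. All 3 had an unadjusted p under 0.05 in the edgeR fit without control replicate 2, as had 26.3% of all tested genes. The 3 genes were picked by a fit that used the same libraries. With edgeR none of the 3 passed without control replicate 2 or control replicate 3, or after removal of the length and GC trends. With those trends removed, Rnf2 had a log2 fold change of -0.01 (adjusted p = 0.91) against -0.34 before, Pcgf6 one of -0.33 and Cbx3 one of -0.43. Pcgf6 passed in 7 of 14 alternatives, and Rnf2 and Cbx3 in 5 each.

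Among 30 genes for kinases, phosphatases, ubiquitin ligases and deubiquitinases that act on MYC proteins, 1 fell and 1 rose (median log2 fold change -0.01). Cul1, the scaffold of the SCF ubiquitin ligases, fell 1.34-fold (135.5 ± 5.95 CPM in the knockouts, 181.7 ± 11.0 CPM in the controls, edgeR adjusted p = 0.022). Cdk2, a cell cycle kinase, rose 1.35-fold (25.1 ± 2.29 CPM in the knockouts, 18.6 ± 1.20 CPM in the controls). Of 13 tested regulators of MYC gene transcription and mRNA, 4 fell and 9 did not pass (median 0.01). They were Fubp1, which binds an element upstream of Myc (1.29-fold), the RNA-binding protein genes Elavl1 (1.24-fold) and Hnrnpk (1.31-fold), and Lin28b, an inhibitor of let-7 microRNAs (1.36-fold), the last named after its value was seen. None of these 6 genes passed edgeR's test without control replicate 2 or control replicate 3. In each of these fits all 6 had an unadjusted p under 0.05, against 26.3% and 27.1% of all tested genes. The 6 genes were picked by a fit that used the same libraries. With the length and GC trends removed, Cdk2 and Elavl1 passed. Without these trends the log2 fold change of Fubp1 was -0.13 (-0.37 before), that of Hnrnpk -0.16 (-0.39 before) and that of Cul1 -0.24 (-0.42 before). In the MLX branch, which uses MLX in place of MAX, neither tested gene passed. Mlx had 13.7 and 12.7 CPM in the knockouts against 11.5 to 13.7 CPM in the controls, and Mlxip, the partner MONDOA, had 31.1 and 23.0 CPM in the knockouts against 19.0 to 24.9 CPM in the controls (log2 fold change 0.36, edgeR adjusted p = 0.18).

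Of 29 tested textbook targets of MYC-MAX, a list chosen with earlier results of these data known, 14 fell and 15 did not pass. For 26 of the 29 the knockout level was the lower one (median log2 fold change -0.41). Over all genes this held for 5992 of 12035 tested (median 0.002). Npm1, the nucleolar chaperone nucleophosmin, had 65.6 and 88.7 CPM in the knockouts against 132.3 to 152.2 CPM in the controls. Tfrc, the transferrin receptor, had 64.6 and 79.9 CPM in the knockouts against 112.6 to 125.6 CPM in the controls. Eif2s1, a subunit of translation initiation factor 2, had 81.1 and 91.9 CPM in the knockouts against 128.6 to 149.5 CPM in the controls. For these 3 genes, as for Mycn, knockout replicate 1 was the lowest library. Over the 131 tested genes of the cofactor, regulator and target lists, 23 fell, 14 of them targets, and 2 rose, where 8.51% and 7.98% of all tested genes were called lower and higher. Of these 25 genes, 4 still passed without knockout replicate 1, 3 without control replicate 3 and 0 without control replicate 2 (edgeR). All 25 had an unadjusted p under 0.05 in the edgeR fit without control replicate 2, as had 26.3% of all tested genes. The first fit, which picked the 25, used the same libraries. On all libraries, 23 of the 25 passed with DESeq2 and 19 with limma-voom. With the length and GC trends removed, all 14 target genes still passed, against 2 of the 11 cofactor and regulator genes. In that fit 6.36% of all tested genes were called lower and 3.41% higher. With the replicate number as a block, 9 of the 14 and 0 of the 11 passed (all tested genes: 4.34% lower, 3.93% higher). With both the block and the trend removal, 3 of the 14 and 0 of the 11 passed (all tested genes: 1.08% lower, 0.631% higher). Npm1, Tfrc and Eif2s1 were not among these 3 (edgeR adjusted p = 0.055, 0.063 and 0.066).

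**Figure D4:**
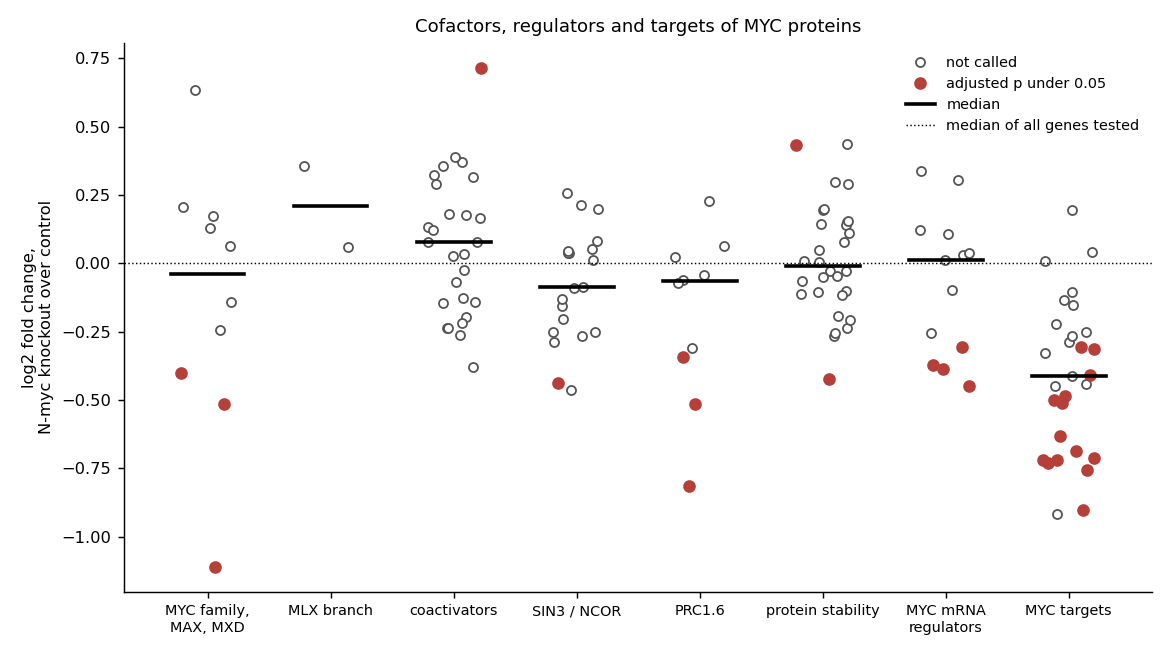
Log2 fold change of the N-myc knockout over the control lenses (vertical axis) for each tested gene of the network and of the lists of cofactors, regulators and targets, filled red where the adjusted p is under 0.05, with a line at each list's median and a dotted line at the median of all tested genes. The MYC targets have a median of -0.41 with 14 genes called lower, and the medians of the lists with 10 to 30 genes for cofactors and regulators lie between -0.09 and 0.08.

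Likeness of profiles was measured as the root mean square difference of mean-centred log2 CPM over the 5 libraries, among 10454 other tested genes with a mean of at least 5 CPM. The 3 genes nearest to Mycn were Entpd1, an ectonucleotidase (0.084), Corin, a membrane serine protease (0.10), and 9330102E08Rik (0.11), where the median gene lay at 0.585. Entpd1 had 28.9 and 40.5 CPM in the knockouts, against 71.3, 66.9 and 70.5 CPM in the controls. The 3 genes nearest to Myc were Abca7, a lipid transporter (0.030), Sfrp2, a secreted Wnt modulator (0.040), and the histone gene Hist1h3c (0.061), where the median gene lay at 0.454. Sfrp2 had 281.0 and 308.6 CPM in the knockouts, against 260.8, 178.2 and 146.1 CPM in the controls. As for Myc, control replicate 1 was the highest control for each of these 3 genes. With edgeR none of the 3 passed the test (adjusted p = 0.078, 0.081 and 0.073). The 3 genes were picked for likeness to Myc over the same 5 libraries, so both traits are part of the selection.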

How the data were processed

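Raw counts for each gene symbol, in whole numbers, were deposited as 1 table. Tools in the submitters' processing notes, listed without role or order, are Cufflinks 2.2.1, DESeq2, HTSeq 0.6.1, TopHat2 2.0.13 and Trim Galore 0.3.7, with the build mm10. Strand setting, annotation and the rule that kept these symbols were not stated in those sources. Groups were compared in R 4.3.3 with edgeR 4.0.16 (filterByExpr with minimum count 10, which removed 335 symbols, TMM scaling, glmQLFit and glmQLFTest without covariates). P-values were adjusted after Benjamini and Hochberg across the 12035 tested genes, at a threshold of 0.05. The SE is the log2 fold change over the square root of F. Limma 3.58.1 and DESeq2 1.42.0 served as alternatives, with other scalings and filters, each library left out, a replicate block, and loess trends on transcript length and GC content as offsets. The procedure was tested on simulated counts. GENCODE vM21, which uses mm10 (GRCm38), gave positions, lengths and GC content by symbol, for 98.1% of tested genes. Chi-square over its degrees of freedom between libraries of a group was 10.07 to 23.63, so each counted as 1 sample. The 10 genes and all lists were chosen with earlier results of these data known. Named are all 10 genes and the 3 called genes of each list with the smallest adjusted p, or 2 as values where none was called. The MLX genes and the 3 nearest profiles of Mycn and Myc are also named, and outside this rule, after their values were seen, Lin28b and Cryaa. Mlxipl, Lin28a, Mycnos and Impdh2 of the lists were not analysed here, and 1 other gene is not reported here.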

Additional observations from a re-analysis of the deposited data

How the results depend on the processing

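Over 14 alternatives, the fall of Mycn, Max and Mxd1 kept its direction in each. Of all tested genes, 637 were lower and 1511 higher when totals alone scaled the libraries (1024 and 960 with TMM). Removing the length and GC trends left 410 higher. Leaving out 1 library gave 17 to 1291 lower and 21 to 1426 higher genes. Among the 10 network genes, 0 to 3 were lower and 0 to 1 higher without 1 library, 3 of them having an unadjusted p under 0.05 in the edgeR fit without control replicate 2, where 0 passed. With DESeq2 1 was higher, and 1 with library totals. Of the cofactor, regulator and target genes, 14 were lower and 7 higher with library totals, 4 were higher with a filter of 1 CPM in 2 libraries and 1 with limma-voom, and leaving out 1 library gave 0 to 24 lower and 0 to 5 higher.

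The replicate numbers are not said to pair the libraries, and the deviations of same-numbered libraries correlated at -0.093 and 0.007. With the replicate number as a block, 522 genes were lower and 473 higher, with 10 and 0 among the cofactor, regulator and target genes. Max did not pass there (edgeR adjusted p = 0.061). Control replicate 3 has no knockout library of the same number, so in the block it adds nothing to the fold change. For Myc the log2 fold change was 0.49 with the block and 0.48 without control replicate 3. Calls lost with the block therefore do not show an effect of pairing. With both the block and the trend removal, 130 were lower and 76 higher, 1 network gene was lower, and 3 and 0 of the cofactor, regulator and target genes were lower and higher.

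Removing the length and GC trends turned the log2 fold change of Mycl to -0.0529 (-0.0786 with the block in addition), that of Mnt to -0.319 (-0.373) and that of Mxd3 to -0.0286. Leaving out 1 library gave Mxd3 values of -0.0511 to 0.172. The cause was not tested. With the longest transcript of each gene, the ratio of the MYC genes to Max averaged 2.31 in the knockouts and 2.54 in the controls, the Mycl share 7.45% in the controls, and the sums 51.2 and 73.8 (MYC genes) and 49.1 and 54.3 CPM per kilobase (other partners) in knockouts and controls. With library totals the last sum was 42.8 and 43.9. The other shares, ratios and sums per length moved by less than 1 SD with these settings. Mxd3, with 20 to 27 counts a library, was limited by depth.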
